A study of Homo sapiens with 8 samples.

Results

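The iron, heme and ferroptosis genes described here are 10 human genes: the ferritin chains FTH1 and FTL, NCOA4, TFRC, the iron sensors IREB2 and ACO1, the heme oxygenases HMOX1 and HMOX2, and the ferroptosis genes GPX4 and ACSL4. They were picked by name, and every entry of an m6A peak list assigned to one of these names was taken. The list named 8 of the 10 genes in 14 of its 42272 peaks, against 16701 gene names over the whole list. Since the genes were chosen with values of the list known, their folds, p-values and regions are given as a description and were put to no test.

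The peaks came from MeRIP-seq, in which fragmented poly(A) RNA is pulled down with an antibody against N6-methyladenosine (m6A) and sequenced beside the unselected input. The cells were U251, an established human glioblastoma line, and all were transfected with a small interfering RNA, either the negative control si-NC or si-HNRNPC, which is aimed at the m6A reader HNRNPC. The labels named 8 libraries, 2 each of si-NC input, si-HNRNPC input, si-NC at 48 h and si-HNRNPC at 48 h, and did not say that the 48 h libraries were the immunoprecipitates. The single list was deposited as siRNA immunoprecipitate against siRNA input, a name that may mean the si-HNRNPC libraries but that does not say which siRNA, and none of its columns names a library. It was therefore assigned to neither transfection, si-HNRNPC was not compared with si-NC, the knockdown of HNRNPC was not checked, no replicate error could be given, and the depth of the libraries is unknown.

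As background, cells keep spare iron inside ferritin, a shell built of heavy (FTH1) and light (FTL) chains, and release it when NCOA4 carries ferritin to lysosomes. The iron regulatory proteins ACO1 and IREB2 bind stem-loops called iron-responsive elements, near the start of ferritin mRNAs, where binding holds back translation, and in the 3′ UTR of TFRC mRNA, where binding protects the transcript. Heme oxygenases free iron from heme, and free iron feeds the lipid peroxidation that ends in ferroptosis, a form of cell death that GPX4 restrains and ACSL4 favours.

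The start of the FTL mRNA is shown because it holds the loop letters of the iron-responsive element, the feature through which the ferritin mRNAs are known to be controlled. The stretch was read from the RefSeq table of GRCh38.p14 at chr19:48965329-48965358 on the plus strand, and the capitals mark CAGTG.
FTL: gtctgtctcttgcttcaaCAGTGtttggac
CAGTG was searched in the first 50 transcribed bases of the RefSeq start windows. It stood on the sense strand in 2 of 13 windows of the 8 genes matched there, those 2 being FTL and a window of NCOA4. Over all genes it stood on the sense strand in 2277 of 35116 windows (6.48%) and on either strand in 4278 (12.2%). On either strand 3 of the 13 windows held it, the added one being a window of HMOX2. A match of 5 letters describes the window and is not evidence of a binding site. For FTH1 and HMOX1 no window was used here.

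Within the 8 genes, FTH1 combined the lowest p-value of the whole list with a fold enrichment below the middle of the list. The fold enrichment is the authors' ratio of immunoprecipitate to input in a peak, and the log10 p is the deposited support for it, lower values being stronger. All 14 peaks had a false discovery rate (FDR) under 0.05, as did 81.6% of all peaks, since the list held no p above 0.05. At an FDR under 0.001, 13 of 14 peaks remained, against 62% of all peaks. The folds ran lower than in the list as a whole: 11 of 14 peaks lay under the median fold of all peaks, against 49.3% of all peaks, and the median fold was 2.815 for the 14 and 5.45 for all. Counted by gene, the highest fold of 7 of the 8 genes lay under the median over genes, where 50% of all genes lie, and the median of these highest folds was 3.785 against 8.31. A fold of at least 2 was reached by 9 of the 14 peaks, against 86.9% of all peaks. The support ran the other way, with a median log10 p of -45.5 over the 14 peaks and -6.11 over all peaks. Because the list stops at a p of 0.05, a peak of few reads can be listed only at a high fold. How far this limit bears on the fold medians of the whole list was not tested.

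**Figure D1:**
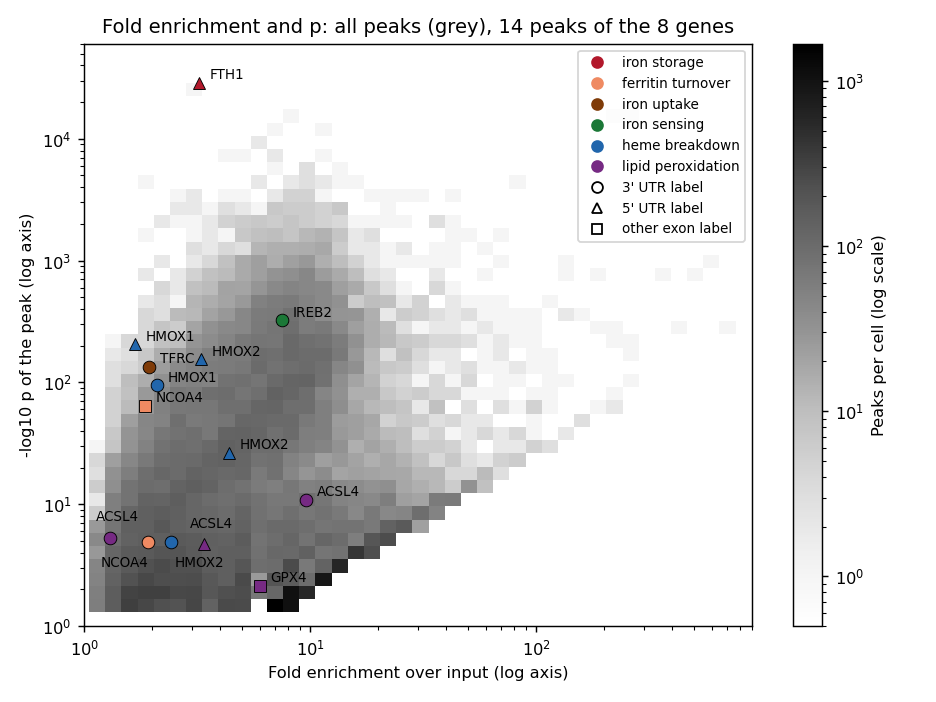
Fold enrichment over input (x, log axis) against -log10 p (y, log axis) for all 42272 peaks, shown as the number of peaks per cell in grey, and for the 14 peaks of the 8 genes, coloured by role and shaped by region label. FTH1 stands above every other peak at a fold of 3.21, while most of the other marked peaks lie toward the left of the cloud.

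FTH1 (ENSG00000167996) encodes the ferritin heavy chain, which oxidises iron for storage. It had a single peak on chromosome 11 from 61967130 to 61967634 on the minus strand, labelled 5′ UTR, in 2 exon blocks of 37 and 323 bases. The fold enrichment was 3.21, and 30.4% of all peaks had a fold at or below it. The log10 p was -28800 and the log10 FDR was listed as minus infinity, which 2011 peaks of the list share. The next lowest log10 p was that of IGFBP5, a secreted binder of insulin-like growth factors, at -15000, so that the FTH1 exponent was 1.92 times as large.

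Peaks of the same fold set the scale of that support. Among the 1000 peaks closest to FTH1 in fold, from 3.14 to 3.29, the median log10 p was -4.49, with quartiles of -17.4 and -2.13, and the lowest was -2260. Among the 200 closest, from 3.18 to 3.25, the median was -18.85, so this scale depends on how many peaks are taken. No peak of the 1000 reached the value of FTH1, which follows from its first rank by p in the whole list. Among the 100 other peaks with the lowest p, the median fold was 8.465 with quartiles of 6.50 and 11.7, and only 8 of them had a fold at or below that of FTH1. FTH1 thus had a low fold for its p and an extreme p for its fold. Its 360 exon bases compared with a median of 299 among the 1000 peaks of like fold, where it stood at percentile 63.3, and with a much longer median of 1182 among the 100 peaks of lowest p. Per exon base, the -log10 p was 80.0 for FTH1, 27.3 for IFI6, an interferon-induced gene, and 22.3 for SNX22, and FTH1 again ranked first.

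The deposited fold and p together implied the number of reads behind each peak. For peaks with a log10 p above -6, whole numbers of immunoprecipitate and input reads, put through an upper-tail binomial test with a fixed scale of 1.0902 between the libraries, gave the listed pair to 3 digits in 12284 of 20993 peaks (58.5%). Moving that scale by 0.01 left 1.26% matched. The same relation was solved for every peak, which is an extrapolation for peaks as strong as that of FTH1. It refers to the window from which the p was computed, and which replicates entered, or of which siRNA, is not stated. Intervals on such reads would cover counting error only, because PCR copies are not separate molecules.

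By this reading, the FTH1 peak rested on about 331434 immunoprecipitate reads and 112471 input reads, 443905 in all, and rounding of the listed values allowed 442117 to 445702. Both the total and the input number ranked first among all peaks. The median peak of the list rested on 85.6 reads, and the median among the 1000 peaks of like fold was 55.9, or 274 among the 200 closest in fold. FTH1 carried 1233 implied reads per exon base. The peaks with the next most input reads were those of PKM, a glycolytic enzyme, with 72584 at a fold of 1.91 and a log10 p of -4400, and ACTB, cytoplasmic actin, with 29904 at a fold of 1.90 and a log10 p of -1780. At a fixed fold, the order of p and the order of implied reads are the same by construction, so these reads restate the listed p in another unit. The list holds no RNA level with which they could be compared.

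Within 10% of the FTH1 fold, between 2.889 and 3.531, lay 3141 peaks, and those with the lowest p came closest to its pattern. They belonged to RPL41 (fold 2.95), a ribosomal protein gene, and LGALS3BP (fold 3.07), a secreted glycoprotein, both with a log10 p of -3380. SPP1, osteopontin, followed with a fold of 3.41 and a log10 p of -3010, CTSB, a lysosomal protease, with 3.08 and -2960, and PTMA with 2.93 and -2380. Their implied reads ran from 42251 for PTMA to 59355 for RPL41, all under those of FTH1. The order of these 5 genes has no replicate error behind it.

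Reads of FTH1 can be shared with near-identical copies elsewhere in the genome, and the handling of reads with several matches is not stated. The list held entries for the pseudogenes FTH1P24, with a fold of 3.02 and a log10 p of -43.7 on chromosome 4, and FTH1P16, with a fold of 14.2 and a log10 p of -3.73 on chromosome 11. At these positions RefSeq also has SETD7 and RSF1 respectively, so the assignments are uncertain. They implied 718 and 16.1 reads, small beside the FTH1 total. A peak of BEST1, a chloride channel gene on the opposite strand, lay within the span that the list gives FTH1, at a fold of 20.7 and a log10 p of -12.2, and shared 0 bases with the FTH1 peak. The libraries were made with a strand-marking step, but whether counting used strand is not stated. The part of shared or antisense reads in the FTH1 value was not tested.

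**Figure D2:**
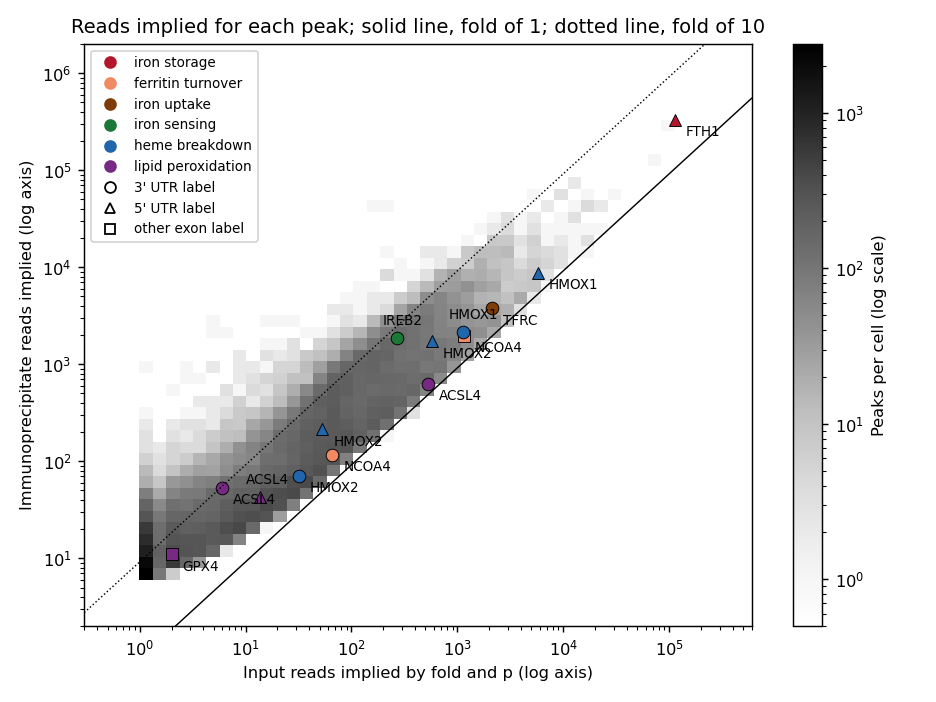
Implied input reads (x, log axis) against implied immunoprecipitate reads (y, log axis) for all peaks in grey and the 14 peaks in colour; the solid line marks a fold of 1 and the dotted line a fold of 10. FTH1 sits at the far upper right with 112471 input and 331434 immunoprecipitate reads, and GPX4 near the lower left with 2 and 11.

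The other genes of iron storage, uptake and sensing had weaker support at folds on either side of that of FTH1. FTL, the ferritin light chain, had no peak in the list, and neither did ACO1, the cytosolic aconitase that doubles as an iron sensor. No peak of another name overlapped their RefSeq positions, and the list gives no level for either gene, so an unmethylated transcript and a weakly expressed one cannot be told apart. NCOA4 (ENSG00000266412), the ferritin cargo receptor, had 2 peaks on the minus strand of chromosome 10. The stronger, from 46010432 to 46010942 in exon 8 of 10, had a fold of 1.86 and a log10 p of -64.5 over 511 bases. The weaker, from 46005088 to 46005148 in the 3′ UTR, had a fold of 1.91 and a log10 p of -4.91, so nearly equal folds came with implied reads of 3103 and 182.

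TFRC (ENSG00000072274), the transferrin receptor that brings iron into the cell, was listed with a peak labelled 3′ UTR, in blocks of 311 and 49 bases between 196051874 and 196053466 of chromosome 3. Its exon length of 360 bases equalled that of the FTH1 peak. The fold was 1.93, the log10 p was -135, and the implied reads were 5878, of which 2121 were input reads. The FTH1 peak, at the same length, implied 75.5 times as many reads. IREB2 (ENSG00000136381), the iron regulatory protein that is degraded when iron is plentiful, had the highest fold among the genes of iron handling, 7.52, in a 3′ UTR peak on chromosome 15 from 78494247 to 78498610 with 809 exon bases. Its log10 p of -324 was the second lowest of the 14 peaks, from 1871 immunoprecipitate and 271 input reads. IREB2 therefore stood opposite to FTH1, with 2.34 times its fold and FTH1 implying 207 times its reads.

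**Figure D3:**
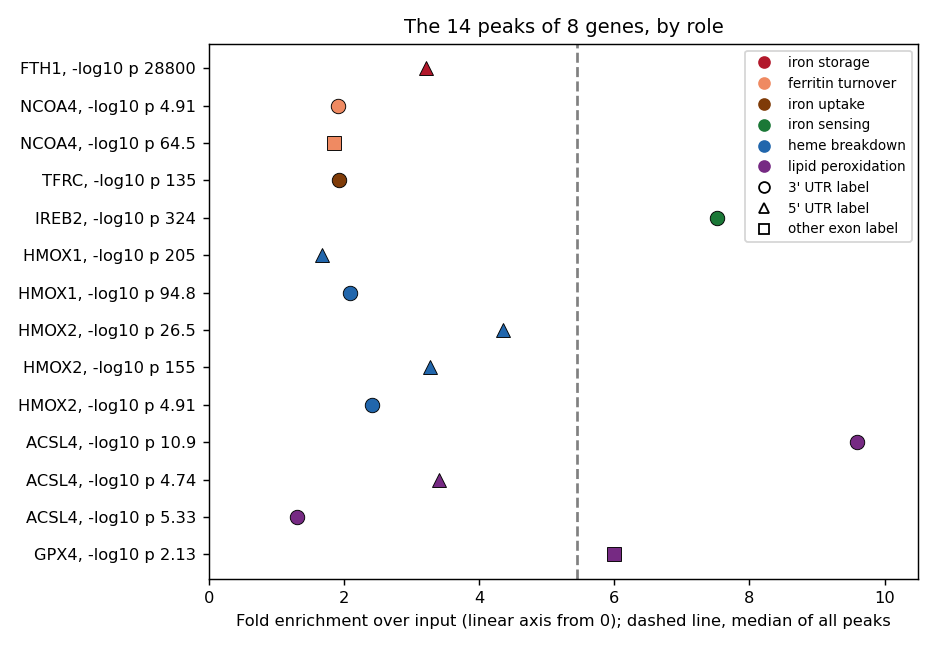
Fold enrichment (x) of each of the 14 peaks, one per line (y, gene and -log10 p), coloured by role and shaped by region label, with a dashed line at 5.45, the median of all peaks. FTH1 had the lowest p at a middle fold, and the 3 ACSL4 peaks spread from 1.30 to 9.59.

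The heme oxygenases differed in where and how strongly they were listed. HMOX1 (ENSG00000100292), the inducible enzyme, had a 5′ UTR peak on chromosome 22 from 35381083 to 35381292, 210 bases in a single block, with a fold of 1.67 and a log10 p of -205. Its 14474 implied reads ranked 164 in the list, and its 5714 input reads ranked 70. Its 3′ UTR peak, from 35394117 to 35394207, had a fold of 2.09 and a log10 p of -94.8 from 3308 reads. Of the 8 genes, HMOX1 came closest to FTH1 in implied reads, and FTH1 still had 30.7 times as many.

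HMOX2 (ENSG00000103415), the constitutive enzyme, had 3 peaks on chromosome 16, with higher folds and fewer reads. The peak from 4474690 to 4496023, labelled 5′ UTR and made of 5 blocks, had a fold of 4.36 and a log10 p of -26.5 from 266 reads. The peak from 4496380 to 4509839, also labelled 5′ UTR and made of 6 blocks, had a fold of 3.28 and a log10 p of -155 from 2292 reads. The 3′ UTR peak from 4510048 to 4510317 had a fold of 2.42 and a log10 p of -4.91, matched by 71 immunoprecipitate and 32 input reads. The HMOX2 peak of fold 3.28 was the nearest of the 14 to FTH1 in fold, and against it the FTH1 exponent was 186 times as large and the implied reads 194 times. Fold alone thus placed the pair side by side, and support set them far apart.

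GPX4 and ACSL4, the lipid peroxidation genes, were the least supported of the 8 genes. GPX4 (ENSG00000167468), the selenoenzyme that reduces lipid peroxides, had a single peak in exon 3 of 5 on chromosome 19 from 1106006 to 1106125. Its fold was 5.99, above that of FTH1, yet its log10 p was -2.13 and its log10 FDR -1.52, the only one of the 14 above an FDR of 0.001. It was matched by 11 immunoprecipitate and 2 input reads, and a fold from 2 input reads is imprecise. FTH1 implied 34133 times as many reads.

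ACSL4 (ENSG00000068366), which loads polyunsaturated fatty acids into lipids, had 3 peaks on the minus strand of chromosome X. The one from 109623877 to 109624554, labelled 3′ UTR, had the highest fold of the 14, 9.59, with a log10 p of -10.9 from about 58.7 reads. It did not overlap ACSL4 in RefSeq, where its position holds KCNE5, a potassium channel subunit, so its assignment to ACSL4 is uncertain. The one from 109624244 to 109641349, labelled 5′ UTR, had a fold of 3.40 and a log10 p of -4.74. It shared 78 exon bases with the first, and its span overlapped KCNE5 and PPP6CP as well as ACSL4 in RefSeq. The one from 109644069 to 109659385, labelled 3′ UTR, had a fold of 1.30 and a log10 p of -5.33 from 1153 reads, and it alone overlapped only ACSL4 in RefSeq. Without the uncertain entry, the highest ACSL4 fold was 3.40, its lowest log10 p was -5.33, and the highest fold of all 8 genes lay under the median over genes. Among all 14 peaks, 13 overlapped the RefSeq gene of their own name.

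Set side by side, the roles ordered differently by fold and by support. Ranked among the 16701 genes by lowest p, FTH1 was 1, IREB2 1710, HMOX1 2674, HMOX2 3356, TFRC 3704, NCOA4 5565, ACSL4 9620 and GPX4 14576. By highest fold, ACSL4 stood at percentile 58.6, IREB2 at 42.1, GPX4 at 30.1, HMOX2 at 20.5, FTH1 at 12.3, HMOX1 at 5.18, TFRC at 4.06 and NCOA4 at 3.95. The place of ACSL4 by fold came from the entry that lies over KCNE5. Without it ACSL4 stood at percentile 13.9, behind IREB2, GPX4 and HMOX2 and just ahead of FTH1, and at rank 11680 by p. That percentile came from the peak of fold 3.40, which also overlapped KCNE5 and PPP6CP. The only peak that overlapped ACSL4 alone had a fold of 1.30, the lowest of the 14, with 1.41% of all peaks at or below it. ACSL4 and GPX4 had the weakest support of the 8 genes with or without the entry outside ACSL4 in RefSeq. NCOA4, TFRC and HMOX1 were lowest by fold and in the middle by support. Only 2 of the 14 peaks, of ACSL4 and GPX4, rested on fewer than 10 input reads, against 41.9% of all peaks. The median of the implied input reads was 398 for the 14 peaks and 19.0 for all peaks. With no replicates, which neighbours in these orders differ beyond their error could not be judged.

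By region, 7 of the 14 peaks were labelled 3′ UTR, 50% with a 95% Wilson interval of 26.8 to 73.2, against 44.1% of all peaks. A further 5 were labelled 5′ UTR, 35.7% with an interval of 16.3 to 61.2, against 23.5% of all peaks, and 2 were labelled other exon, against 32.3%. Both intervals cover counting error only and treat the 14 peaks as independent, although HMOX2 and ACSL4 have 3 each. They hold the share of the whole list but are a description and no test. The 5′ UTR peaks were those of FTH1, HMOX1, HMOX2 with 2 peaks, and ACSL4. These labels are as listed and did not always follow position. On the minus strand, the ACSL4 peak labelled 5′ UTR, from 109624244 to 109641349, lay downstream of that labelled 3′ UTR from 109644069 to 109659385. The HMOX2 peak of 6 blocks ran to 4509839, near 4510346, where the list ends another HMOX2 transcript. The shares by region thus describe labels rather than place in a transcript. Peaks of more than 1 exon block made up 7 of the 14, against 39.7% of all peaks, and 4 of the 5 peaks labelled 5′ UTR were of this kind, so that their label covers more than a single stretch. The median exon length was 360 bases for the 14 and 405 for all.

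A wider list of 107 genes in 9 roles placed these genes among others of iron, heme and lipid peroxidation. Of them 72 had a peak, and 59 of the 72 (81.9%) had one with an FDR under 0.001, against 76.7% of all genes in the peak list. The highest fold of 53 of the 72 lay under the median over all genes, under which 50% of all genes lie, and the median was 5.385 against 8.31. The 72 include the 8 genes described here, and 7 of these are among the 53. Lower folds were shared by many other genes of the wider list and were not particular to the ferritin, heme oxygenase and ferroptosis genes. The limit that a p of 0.05 sets on the folds of peaks with few reads holds for this comparison too.

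By role, the median highest fold was lowest in heme synthesis, 2.285 over 8 genes, and in iron storage, 3.24 over 4 genes. It was highest in mitochondrial iron and iron-sulfur assembly, 7.44 over 7 genes, and in iron sensing, 6.99 over 5 genes. Heme transport and breakdown had 4.36 over 9 genes, genes driving lipid peroxidation 5.93 over 10 (4.84 without the uncertain ACSL4 entry) and genes restraining it 6.54 over 13. All of these medians lay under that of all genes. The median of 6.54 was the fold of KEAP1, whose peak rested on 7.03 implied reads, at a log10 p of -1.31. KEAP1 was counted among the 13 restraining genes although it acts against NFE2L2, another of them. With the fold of each gene's lowest-p peak instead, the median was 4.84 for driving and 4.58 for restraining genes, the opposite order. Without the uncertain ACSL4 entry, the lowest-p peak of ACSL4 had a fold of 1.30, and this reversal was lost. It was also lost without KEAP1. By the fold of the lowest-p peak, iron sensing had 5.60 and mitochondrial iron and iron-sulfur assembly 5.45, the reverse of their order by highest fold. In iron storage, all 4 genes with a peak had an FDR under 0.001, PCBP2, an iron chaperone for ferritin, having the highest fold of 4.81 with a log10 p of -9.92. Among genes driving lipid peroxidation, 7 of 10 had such a peak, and the lowest log10 p was -19.2 for ALOX12, a lipoxygenase. Among those restraining it, 11 of 13 had one. HSPB1, a small heat shock protein, led in p with a fold of 2.95 and a log10 p of -596. VKORC1L1, a vitamin K reductase, led in fold with 37.0 and -356. The median of the lowest log10 p per gene was -4.7 for driving and -81 for restraining genes, against -34.75 over the wider list.

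Of the 6 genes that came nearest to FTH1 in support within these roles, 5 had a higher fold, and HSPB1, described above, had a lower one. SLC39A14, a metal importer, had a fold of 12.8 with a log10 p of -2780. SLC3A2, a subunit of the cystine importer, had 5.99 with -1850, and CHAC1, which degrades glutathione, had 9.90 with -1640. FBXL5, which directs the degradation of IREB2, had 6.99 with -565, and SLC25A28, a mitochondrial iron carrier, had 6.90 with -751 in one peak and 67.5 with -23.3 in another. In heme handling, HMOX1 held the lowest p, UROD of heme synthesis had a fold of 3.47 with -163, and the heme exporter FLVCR1 had 70.8 with -21.9 from 75.1 reads. CIAO3, ABCB6, CBS and NOX1 had the highest folds of their roles, 26.1, 45.8, 25.1 and 17.4, each at a log10 p between -14.4 and -4.15 and thus far weaker in support than FTH1. The FTH1 exponent exceeded all of them, being the largest of the whole list.

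**Figure D4:**
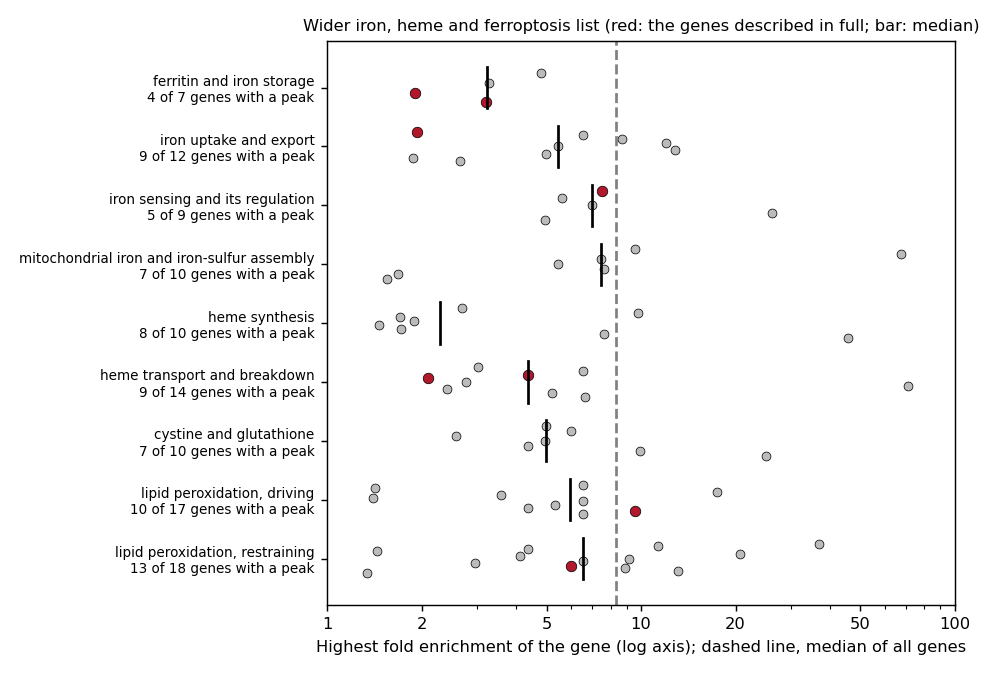
Highest fold enrichment (x, log axis) of each of the 72 genes with a peak, by role (y); red points are the genes described in full, bars the median of each role, and the dashed line at 8.31 the median over all genes of the peak list. Most points lie left of the dashed line, 53 of 72 in all.

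The peak list's own pathway tags gave a similar picture. The Ferroptosis tag covered 28 genes with a peak, 6 of them among those described here, with a median highest fold of 4.585, and 23 of the 28 lay under the median over all genes. FTH1 ranked 19 of these 28 by fold and 1 by p, ahead of PRNP, the prion protein, at a log10 p of -3820. The tag for porphyrin and chlorophyll metabolism covered 21 genes, including HMOX1 and HMOX2, with a median highest fold of 2.68, and 18 of the 21 lay under the median over all genes. These tags and the wider list share genes, so their counts are not independent.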

How the data were processed

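The labels describe 8 libraries of U251 cells. The one file used, a list of 42272 peaks with 24 columns, has no column per library. Its values, the fold enrichment (a ratio of immunoprecipitate to input), the p-value, and the log10 p and log10 FDR (each treated as a score, since they reach far below the usual log range), are as deposited by the authors. Positions, exon blocks, gene names and pathway tags were also used as deposited by the authors. Of tools, fastp and HISAT2 appear in the submitters' processing notes. For the peak caller, the build, the annotation, library depth and any pooling of replicates, nothing was given in the sources used here. Positions are printed as listed. RefSeq (GRCh38.p14) served for sequences and for which genes overlap.

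Each gene was described by its highest fold and its lowest p, beside the same values over all peaks or genes. Since no value per library exists, no test was run. The 10 genes, the wider list and the comparisons were chosen with earlier results of these data known. The genes named are the 10 with all their peaks, per role of the wider list the gene of highest fold and of lowest p, the 5 genes of lowest p within 10% of the FTH1 fold, and genes that overlap them. CHAC1, KEAP1, NFE2L2, IGFBP5, IFI6, SNX22, PKM, ACTB, PRNP and the FTH1 pseudogenes were named after their values were seen. The implied reads were likewise derived after seeing the data: the fold was taken as 1.0893 times the ratio of reads, and the p as the upper binomial tail. The procedures were tested on simulated data, with reads drawn under the same binomial relation that was then solved. Such data could not show whether the deposited peaks follow that relation. Alternatives covered the FDR and fold minimum, overlapping peaks, the value per gene, the peaks compared and rounding. Python 3.11.15, pandas 2.3.3, NumPy 2.4.6, SciPy 1.17.1 and matplotlib 3.10.9 were used.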

Additional observations from a re-analysis of the deposited data

How the results depend on the processing

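Of 51 alternatives, 46 gave values within 1.5 times the reported one, or for the share of 3′ UTR labels within its interval, 5 moved further and 0 changed direction. Several of the 46 could not change. A gene with a single peak, such as FTH1, TFRC, IREB2 or GPX4, has the same fold under every choice of its peaks. FTH1, first by p in the whole list, is also first among any peaks taken from it. With a fold of at least 2 required, 9 of the 14 peaks remained, against 86.9% of all peaks. The fold of FTH1 stood at percentile 8 among the 100 peaks of lowest p and at 3.8 among the 1000 of lowest p. Counting only peaks in a single exon block, an alternative chosen after seeing the data, 1 of the 5 peaks labelled 5′ UTR was left. The ACSL4 fold was 9.59 as the highest and 3.40 both as the median over its 3 peaks and, an alternative added after seeing the data, without the entry outside ACSL4 in RefSeq, which put the median of highest folds at 3.305 for the 8 genes and 5.27 for the wider list. The values for single-block peaks and ACSL4 follow from counting fewer or other peaks, and for the others the cause was not tested. FTH1 ranked 1 by log10 p, by log10 FDR, where 2011 peaks tie, and per exon base. No paired analysis was possible because the peaks come without values of single libraries, so leaving out a replicate was not possible either. The depth is unknown and neither the build nor the siRNA of the list is stated, which limits every value, and peaks resting on few reads, such as that of GPX4, have imprecise folds.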
